A study of Mus musculus with 12 samples.

Results

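The constitutive proteasome subunits were described in 12 mouse expression arrays from Stat5 knockout and control blood cells. Members were the genes that had a single symbol in the array annotation and that symbol was Psma1 to Psma7, Psmb1 to Psmb7, Psmc1 to Psmc6, Psmd followed by a number, or Psme1, Psme3 or Psme4. This gave 37 of the 18194 genes with a single symbol on the array, represented by 82 probe sets, of which the brightest per gene was used. The inducible catalytic subunits Psmb8 to Psmb10 were not members. Psme2 was not a member either, because its only probe set carries the symbols of both Psme2 and Psme2b. The members were 14 core subunits (7 alpha and 7 beta), 9 base subunits, 8 lid subunits, 3 further Psmd genes (Psmd5, Psmd9 and Psmd10) and 3 activator genes.

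The proteasome is the protease that degrades ubiquitin-tagged proteins in the cytoplasm and nucleus. Its barrel-shaped core holds the protein-cutting sites on beta subunits inside outer rings of alpha subunits, and a cap made of a base with ATPases and a lid with a deubiquitinase recognises, unfolds and feeds in substrates. Alternative caps, the PA28 activators (Psme1, Psme2 and Psme3) and PA200 (Psme4), open the core without ubiquitin recognition, and in immune cells interferon-induced subunits replace the catalytic ones.

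The study measured total RNA from mice that had or lacked Stat5a and Stat5b, transcription factors acting downstream of cytokine receptors, on Affymetrix arrays whose signals the authors computed with MAS5. There were 4 groups of 3 arrays, given by the titles: control arrays with a minus sign, control arrays with a plus sign, knockout arrays with a minus sign and knockout arrays with a plus sign. The labels' protocols call the plus arrays treated with CMP and the minus arrays not treated with it. They do not say what CMP is, and strain, age, sex, the deleting transgene and the number of animals behind an array are not given in the sources used here. The p-values below therefore measure only the spread between these arrays, which may be technical. The titles are written in 3 forms (here naming set A, set B and set C), and each form holds 1 array of every group. The knockout minus array of set B is called a control in its treatment protocol and was grouped by its title.

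Stat5a and Stat5b signals were 7 to 90 in the 6 knockout arrays and 660 to 2177 in the 6 control arrays, as the titles state. The 4 arrays of set B stood apart. The ratio of their 3' to 5' beta-actin control probe sets, a measure of RNA integrity, was 19.7 to 54.8, against 1.19 to 4.40 in the other 8 arrays, and in each set and genotype it was higher in the plus array. Of the marker lists of blood cell types, the pan-leukocyte list was above the level filter for 5 of 5 genes, the B cell list for 1 of 5, the T cell list for 1 of 6 and the stromal list for 2 of 6. Erythroid genes fell in the plus arrays, with 4 of the 5 tested passing in each genotype, and their summed signal was 7043 to 39806 in control minus arrays and 1570 to 4597 in control plus arrays. In knockouts that sum was 5852 to 21850 in minus arrays and 758 to 2107 in plus arrays. The late erythroid genes Hba-a1, Alas2 and Slc4a1 were below the filter. Of the 8 myeloid progenitor markers 3 fell in controls and 2 in knockouts, and 1 of the 6 monocyte and 1 of the 5 pan-leukocyte markers tested rose in each genotype. Of the 8 neutrophil markers 0 fell in controls (median -0.40) and 1 in knockouts. In knockouts all 8 were lower in the plus array of every set (median -1.28, and -2.45 in set B). There 5 of the 8 had an unadjusted p under 0.05, against 3590 of the 10583 genes tested. Of all genes tested, 11.6% fell and 10.6% rose in controls, and 9.72% fell and 9.03% rose in knockouts. The part of cell make-up in the results below was not tested. With the actin ratio as a covariate, 5 proteasome genes passed in controls and 1 in knockouts (8 and 5 without it). Of all genes tested, 14.4% and 6.14% passed with it, and 22.1% and 18.8% without it. The core median with it was -0.68 in controls in place of -0.39 and -0.30 in knockouts in place of -0.16. In these bulk samples, fewer cells of a type and less RNA per cell cannot be told apart.

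In controls, 8 of the 37 proteasome genes fell in the plus arrays and none rose. All 37 were among the 10583 genes tested, of which 22.1% passed, 11.6% fell and 10.6% rose by the same rule, limma's moderated test with a Benjamini-Hochberg adjusted p under 0.05 over all genes tested. The 8 were the activator genes Psme1 and Psme3, the core genes Psma1, Psma7, Psmb2 and Psmb7, the base gene Psmd2 and the lid gene Psmd7. The median log2 difference was -0.31 over the members and -0.02 over all genes tested, and 30 of the 37 members were below 0. At an unadjusted p under 0.05, 16 of the 37 members and 3849 of the 10583 genes tested passed. The count was 2 to 14 when 1 of the 12 arrays was left out (12.2% to 32.6% of all genes tested) and 9 without set B (29%). It was 0 without the naming set as a block (4.44%) or without set C (5.4%). Psme1 passed in 25 of 27 alternatives, while Psma7, Psma1 and Psmd7, whose adjusted p lay just under the threshold, passed in 8, 9 and 10. Differences are on the log2(signal + 32) scale, which understates changes of dim genes. Errors are standard errors of the fit, over 3 arrays per group.

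**Figure D1:**
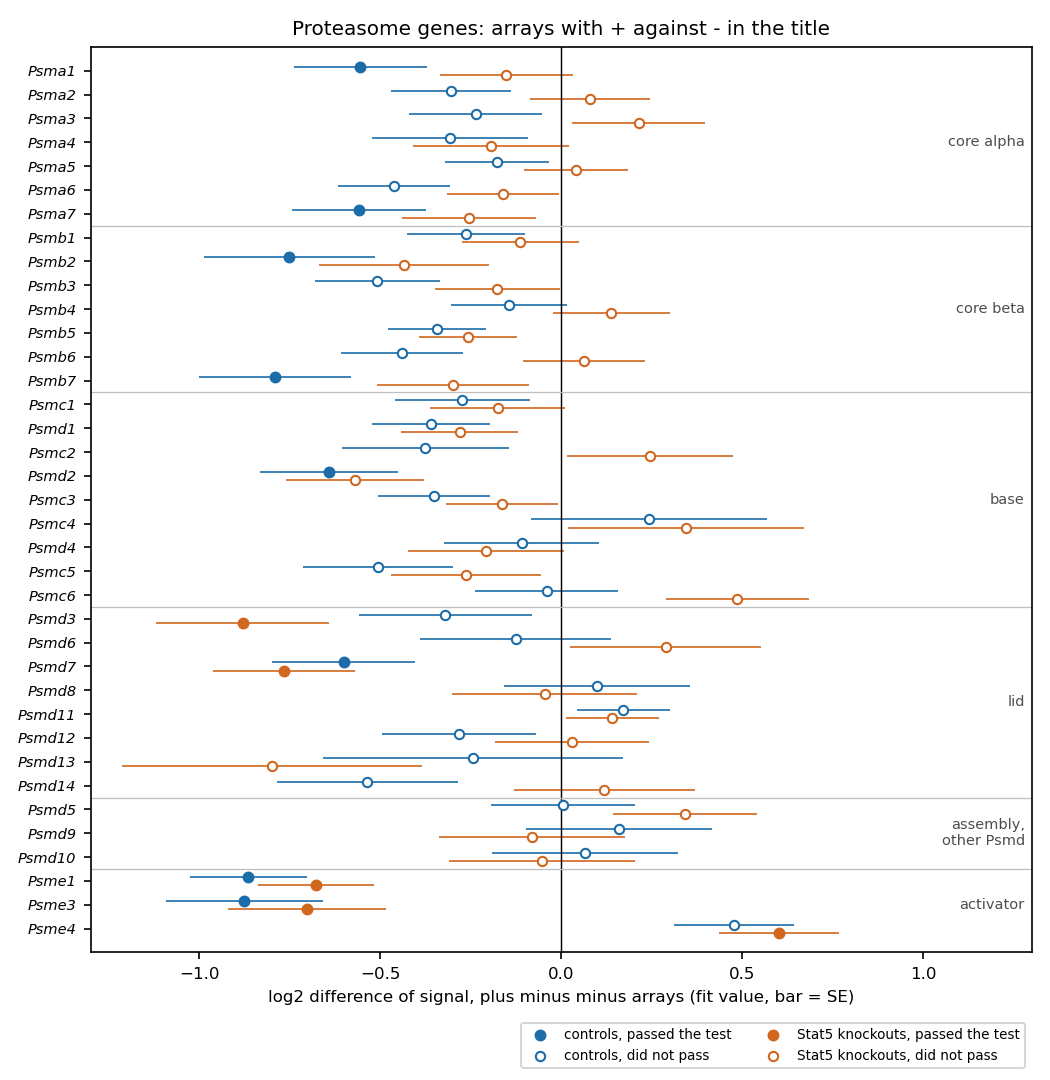
Log2 difference between plus and minus arrays (horizontal axis, log2 units) for each of the 37 proteasome genes, grouped by role, in controls (blue) and Stat5 knockouts (orange); points are fit values, bars are 1 standard error, and filled points passed the test. All 14 core genes lie below 0 in controls, and Psme1 and Psme3 are filled and below 0 in both genotypes.

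In controls the PA28 genes Psme1 and Psme3 had the largest differences among the members. The promoter windows of the 3 activator genes and of Psmd2, which encodes the large base scaffold that docks ubiquitin receptors, are shown as examples. They come from the RefSeq table (build GRCm38.p6, 250 bases before to 50 bases after an annotated start). These genes moved and have a window, but the same holds for Psma1 and Psma7, whose windows at the gene start are not shown. These conditions alone therefore do not account for the choice. The windows of Psme1, Psme3 and Psme4 are at the start of the gene, and that of Psmd2 is at a start 530 bases inside the annotated gene. Of the 33 windows of members, 25 are at the gene start and 8 at another one. The windows shown lie on the plus strand: Psme1 at chr14:55578244-55578543, Psme3 at chr11:101315963-101316262, Psme4 at chr11:30771525-30771824 and Psmd2 at chr16:20651402-20651701. Capitals mark matches, on either strand, to 6 motifs: TGACNNNGC (core of the antioxidant response element), TTCNNNGAA (STAT site), GAAA and GAAA with any 2 bases between (core of the interferon-stimulated response element), CCGGAAG (ETS site), CCAAT (NF-Y site) and GGGCGG (GC box).
Psme1: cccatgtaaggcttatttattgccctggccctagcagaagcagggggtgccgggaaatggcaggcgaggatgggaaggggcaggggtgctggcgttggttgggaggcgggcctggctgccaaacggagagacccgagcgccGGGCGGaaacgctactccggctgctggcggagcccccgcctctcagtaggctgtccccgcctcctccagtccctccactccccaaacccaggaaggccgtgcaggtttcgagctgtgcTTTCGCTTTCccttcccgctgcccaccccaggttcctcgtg
Psme3: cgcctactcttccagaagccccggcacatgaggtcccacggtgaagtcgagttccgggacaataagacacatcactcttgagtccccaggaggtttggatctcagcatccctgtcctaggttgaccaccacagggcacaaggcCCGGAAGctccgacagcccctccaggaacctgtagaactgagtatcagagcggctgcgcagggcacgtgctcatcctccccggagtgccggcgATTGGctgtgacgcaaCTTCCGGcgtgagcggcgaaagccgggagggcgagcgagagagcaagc
Psme4: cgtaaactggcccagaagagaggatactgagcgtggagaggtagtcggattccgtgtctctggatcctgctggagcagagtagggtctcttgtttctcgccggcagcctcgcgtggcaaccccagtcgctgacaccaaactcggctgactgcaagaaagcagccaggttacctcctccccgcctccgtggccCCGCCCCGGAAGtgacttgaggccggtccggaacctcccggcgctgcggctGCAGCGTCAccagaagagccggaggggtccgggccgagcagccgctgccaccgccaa
Psmd2: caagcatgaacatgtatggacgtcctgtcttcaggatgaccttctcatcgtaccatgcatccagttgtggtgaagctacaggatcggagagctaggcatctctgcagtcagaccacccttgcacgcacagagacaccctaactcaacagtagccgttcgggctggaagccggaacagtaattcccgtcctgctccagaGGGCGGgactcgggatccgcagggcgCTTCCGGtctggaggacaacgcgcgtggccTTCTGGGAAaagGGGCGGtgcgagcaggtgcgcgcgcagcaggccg

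These windows hold different motif letters. The Psme1 window has a match to the interferon motif just after the gene start, the Psme4 window a match to TGACNNNGC across the start, and the Psmd2 window a match to TTCNNNGAA just after its own, internal start. A match is only a description of letters. Of 14 motifs searched, 13 were chosen with earlier results known and the interferon motif was added after the values of Psme1 and Psmb8 to Psmb10 had been seen. Of the 37 members, 31 had a window, and shares of these genes are given against shares of all 32851 windows in the table. TGACNNNGC occurred in 6 members (19.4% against 12.4%): Psmb5, Psmb6, Psmc6, Psmd9, Psmd12 and Psme4. The interferon motif occurred in 4 (12.9% against 3.44%): Psmb3, Psmd4, Psmd9 and Psme1. TTCNNNGAA occurred in 1 (3.23% against 8.3%), Psmd2, so the windows shown include the only member with this match. CCGGAAG occurred in 12 (38.7% against 8.86%), CCAAT in 12 (38.7% against 37.4%) and GGGCGG in 20 (64.5% against 35.7%). Of the 8 motifs not capitalised, TTCCGG, which lies within the reverse of CCGGAAG, occurred in 17 members (54.8% against 14.9%) and the nuclear respiratory factor 1 motif with 1 free base in 6 (19.4% against 4.6%). Of the others, the exact nuclear respiratory factor 1 motif (3.23% against 0.971%), the YY1 motif (3.23% against 0.633%), TTCCNNGAA (3.23% against 4.81%) and GAANNTTC (3.23% against 7.86%) occurred in 1 member each. TGATGCAAT (0% against 0.192%) and TGACGTCA (0% against 1.79%) occurred in none.

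Psme1 encodes the alpha subunit of the cytoplasmic PA28 activator. Its signal in sets A, B and C was 4275, 2347 and 4250 in control minus arrays and 2769, 1255 and 1982 in control plus arrays. In knockouts it was 4418, 2575 and 4293 in minus arrays and 2826, 1717 and 2419 in plus arrays. The plus array was the lower one in every set and genotype, although the groups overlapped because set B was low throughout. Psme1 fell by 0.86 ± 0.16 on the log2 scale in controls, to 0.549 times the minus level (adjusted p = 0.00345), and by 0.68 ± 0.16 in knockouts, to 0.625 times (adjusted p = 0.0143).

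Psme3 encodes PA28-gamma, the nuclear member of the family. Its signal was 891, 1217 and 692 in control minus arrays and 555, 470 and 426 in control plus arrays. In knockouts it was 681, 1011 and 694 in minus arrays and 551, 501 and 371 in plus arrays. In both genotypes every plus array was below every minus array. Psme3 fell by 0.88 ± 0.22 in controls (adjusted p = 0.0147) and by 0.70 ± 0.22 in knockouts (adjusted p = 0.0434). Without set B the knockout difference was -0.57 ± 0.19 and no longer passed (adjusted p = 0.0599). Another probe set of Psme3 gave -1.001 in controls (adjusted p = 0.0406) and -1.02 in knockouts (adjusted p = 0.0458).

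Psme4 encodes PA200, a large nuclear activator known for its role in histone breakdown, and had the opposite direction. Its signal was 2092, 2306 and 1823 in control minus arrays and 2888, 3047 and 2728 in control plus arrays. In knockouts it was 1881, 2539 and 1738 in minus arrays and 2759, 4199 and 2544 in plus arrays. Every plus array was above every minus array of its genotype. Psme4 rose by 0.60 ± 0.17 in knockouts, to 1.52 times (adjusted p = 0.0274). In controls the difference was 0.48 ± 0.17 and did not pass (adjusted p = 0.0598), and without set B both passed (0.52 and 0.54, adjusted p = 0.0218 and 0.0201). With each array centred on its median, a scaling that moved the median of all genes in controls from -0.02 to -0.22, Psme4 kept its sign but passed in neither genotype (0.28 and 0.54, adjusted p = 0.374 and 0.106). Its other 4 tested probe sets had differences of 0.43 to 0.59 in controls and 0.40 to 1.14 in knockouts, none of which passed.

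**Figure D2:**
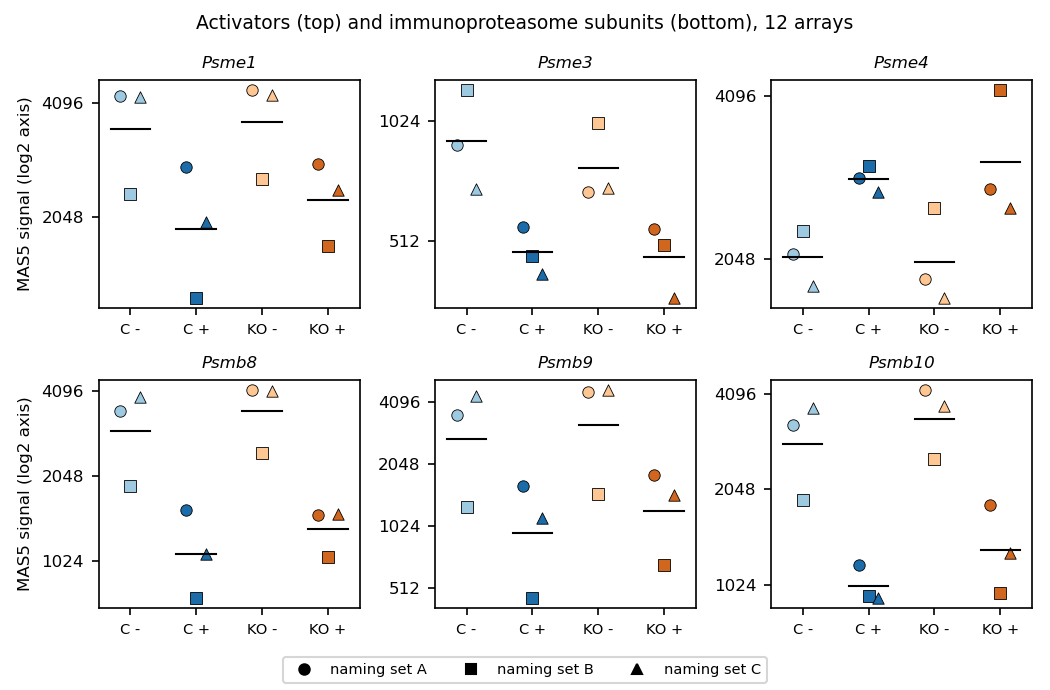
MAS5 signal (vertical axis, log2 scale) of the activator genes Psme1, Psme3 and Psme4 (top) and the interferon-induced catalytic subunits Psmb8, Psmb9 and Psmb10 (bottom) in each of the 12 arrays; C is control, KO is knockout, marker shape gives the naming set and the line is the group mean of log2(signal + 32), turned back to signal. Psme3 and Psmb10 are lower in every plus array than in any minus array of the same genotype, and Psme4 is higher.

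All 14 core genes had lower fitted levels in control plus than control minus arrays, and 4 of them fell. Among all genes tested, 5467 of 10583 were below 0 and 11.6% fell. The median difference over the core was -0.39, from -0.15 (Psmb4) to -0.79 (Psmb7). An unadjusted p under 0.05 was found for 8 of the 14 core genes, against 3849 of the 10583 genes tested. Averaged over the core, the difference was -0.31 (set A), -0.60 (set B) and -0.34 (set C). Without set B the median was -0.27 and all 14 stayed below 0. Of them 4 fell (Psma1, Psmb2, Psmb3 and Psmb7), against 16% of all genes tested. The sign of the core median held under median centring (-0.59) and quantile normalization (-0.32).

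The 3 constitutive catalytic subunits did not all pass. Psmb5, which carries the chymotrypsin-like activity, had signals of 5934, 5291 and 7162 in control minus arrays and 4393, 4072 and 6131 in control plus arrays, and -0.34 ± 0.14 (adjusted p = 0.0914). Psmb6, which carries the caspase-like activity, had 5157, 10692 and 4244 against 4282, 6283 and 3464, and -0.44 ± 0.17 (adjusted p = 0.0819). Psmb7, which carries the trypsin-like activity, had 7141, 1060 and 6901 against 4067, 531 and 4509. In each of the 3 sets the plus array was lower for all of them, and the groups overlapped. Psmb7 fell by 0.79 ± 0.21, to 0.578 times (adjusted p = 0.0193).

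Psmb2, a structural beta subunit, had signals of 2177, 1290 and 2940 in control minus arrays and 1140, 883 and 1665 in control plus arrays, and fell by 0.75 ± 0.24 (adjusted p = 0.0401). Psma1, an alpha ring subunit, had 4830, 2877 and 4530 against 3277, 1839 and 3249, and fell by 0.56 ± 0.18 (adjusted p = 0.0486). Psma7, another alpha ring subunit, had 2398, 3714 and 2671 against 1860, 1871 and 2107, and fell by 0.56 ± 0.18 (adjusted p = 0.0489). Of these 3 genes, Psma7 had groups that did not overlap. A further probe set of Psma7 gave -0.68 (adjusted p = 0.0228), whereas those of Psma1 gave 0.35 and -0.13 (adjusted p = 0.367 and 0.759). Psma6 missed the threshold with its brightest probe set (-0.46 ± 0.15, adjusted p = 0.0503), and its second brightest gave -0.82 (adjusted p = 0.0144). Psmb3 missed it as well (-0.51 ± 0.17, adjusted p = 0.054).

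In the base, 8 of 9 genes were below 0 in controls and 1 fell. Of the 10583 genes tested, 5467 were below 0 and 11.6% fell, so the count that fell was near the background. Psmd2 had signals of 7060, 3829 and 7384 in control minus arrays and 4181, 2345 and 5303 in control plus arrays. Each plus array was below the minus array of its set, with overlapping groups, and Psmd2 fell by 0.64 ± 0.19 (adjusted p = 0.0331). It passed in 14 of 27 alternatives, and averaged with its second probe set, which is below the level filter, it was at -0.18 (adjusted p = 0.41). None of the 6 ATPase genes Psmc1 to Psmc6 passed. Psmc5 (-0.51 ± 0.21, adjusted p = 0.102) and Psmc4 (0.24 ± 0.33, adjusted p = 0.634) had the lowest and highest differences among them. The median of the base was -0.35, and -0.15 without set B.

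In the lid, 6 of 8 genes were below 0 in controls and 1 fell. This count was also near the background, since 11.6% of all genes tested fell and 5467 of the 10583 were below 0. Psmd7, the inactive partner of the deubiquitinase Psmd14, had signals of 2205, 595 and 2024 in control minus arrays and 1643, 356 and 1236 in control plus arrays, and fell by 0.60 ± 0.20 (adjusted p = 0.0474). Without set B it did not pass in controls. Psmd14 had 9295, 8729 and 9092 against 7756, 4346 and 7140, so the groups did not overlap, but its difference of -0.54 ± 0.25 did not pass (adjusted p = 0.144). The lid median was -0.26, and -0.17 without set B. Psmd5, Psmd9 and Psmd10, which encode chaperones of base assembly, had differences of 0.00 to 0.16, none of which passed.

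Over the 37 members, the control groups did not overlap for 4 genes that were lower in plus arrays (Psma3, Psma7, Psmd14 and Psme3) and 1 that was higher (Psme4). Among all genes tested, 12.5% were lower and 12.6% higher without overlap, so this count was not above the background.

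**Figure D3:**
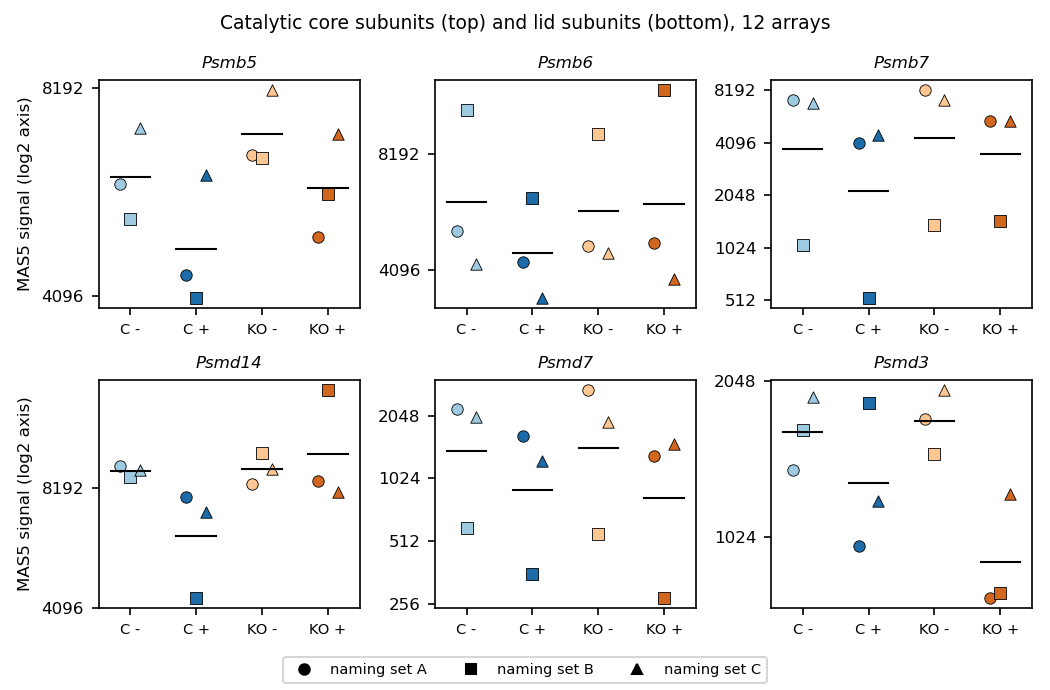
MAS5 signal (vertical axis, log2 scale) of the catalytic core genes Psmb5, Psmb6 and Psmb7 (top) and the lid genes Psmd14, Psmd7 and Psmd3 (bottom) in each of the 12 arrays; marker shape gives the naming set and the line is the group mean of log2(signal + 32), turned back to signal. The set B arrays (squares) are lowest for Psmb7 and Psmd7 in every group, and the set B knockout plus array is the highest of its group for Psmb6 and Psmd14.

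In knockouts, 4 members fell in the plus arrays and 1 rose, against 9.72% and 9.03% of all genes tested (18.8% either way). Besides Psme1, Psme3 and Psme4, these were the lid genes Psmd3 and Psmd7. None of the 14 core and none of the 9 base genes passed. The count was 0 to 5 when 1 array was left out (8.85% to 22.4% of all genes tested) and 7 without set B (25%). It was 0 without the block (2.82%), without set A (6.42%) or without set C (3.36%). The member median was -0.15 against -0.06 over all genes. An unadjusted p under 0.05 was found for 7 of the 37 members, against 3590 of the 10583 genes tested.

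Psmd3, a lid scaffold subunit, had signals of 1731, 1481 and 1967 in knockout minus arrays and 781, 797 and 1237 in knockout plus arrays, with no overlap. It fell by 0.88 ± 0.24, to 0.543 times (adjusted p = 0.0256). In controls its signals were 1377, 1650 and 1909 against 982, 1858 and 1200, where set B ran the other way, and the difference was -0.32 ± 0.24 (adjusted p = 0.362). Psmd7 had 2704, 554 and 1898 against 1315, 275 and 1489 in knockouts, and fell by 0.77 ± 0.20 (adjusted p = 0.0202). Another probe set of Psmd7 gave -0.96 (adjusted p = 0.0321). Psmd2 had 6065, 3693 and 7747 against 4884, 1671 and 6417, each plus array being the lower of its set, and -0.57 ± 0.19 (adjusted p = 0.0577). For non-overlapping groups, 3 members were lower (Psmb2, Psmd3 and Psme3) and 2 higher (Psmc6 and Psme4), against 11.4% and 12.2% of all genes.

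The core median in knockouts was -0.16, with 9 of 14 genes below 0. Set B differed from the others: the mean core difference was -0.24 and -0.20 in sets A and C and 0.12 in set B. Without set B all 14 core genes were below 0, with a median of -0.16. Of them 3 fell (Psma1, Psmb2 and Psmb7), against 13.1% of all genes tested. The catalytic genes in knockouts were -0.26 ± 0.14 for Psmb5, 0.06 ± 0.17 for Psmb6 and -0.30 ± 0.21 for Psmb7, none of which passed. The base median was -0.18 and the lid median was -0.01 (-0.16 without set B). With the actin ratio as a covariate the lid median was -0.39, and 13 of 14 core genes were below 0.

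**Figure D4:**
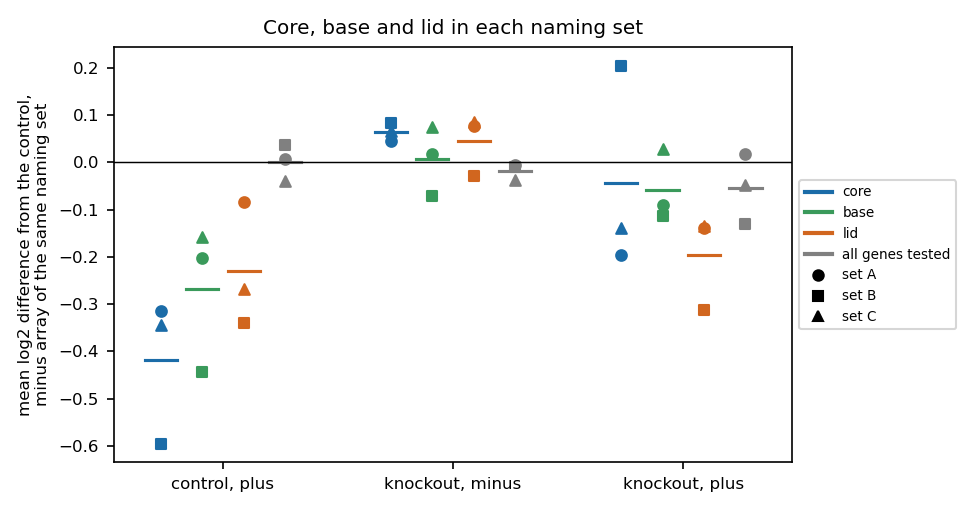
Mean log2 difference (vertical axis) of the core, base and lid genes and of all genes tested, for each of 3 arrays against the control minus array of the same naming set; points are the 3 naming sets and bars their means. In the control plus arrays the core lies at -0.31, -0.60 and -0.34, and in the knockout plus arrays the set B point (0.20) is above 0 while sets A and C are at -0.20 and -0.14.

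Between genotypes, no member passed in the minus arrays. Of all genes tested, 0.0189% passed. The largest differences were 0.32 for Psmc4 and -0.21 for Psme3, and the median was 0.02 against -0.01 over all genes. No member reached an unadjusted p under 0.05 by limma's test, against 250 of the 10583 genes tested. The 95% intervals ran from -0.97 at the lowest (Psmd13) to 1.03 at the highest (Psmc4), and the members' intervals differ in width. No member had groups that did not overlap, against 1.46% of all genes higher and 2.85% lower in knockouts.

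In the plus arrays no member passed either (0.0189% of all genes). An unadjusted p under 0.05 was found for 11 of the 37 members, against 1038 of the 10583 genes tested. All 14 core genes were higher in knockout plus arrays in the fit, with a median of 0.35, while 4806 of the 10583 genes tested were above 0 and their median was -0.04. By naming set the core median was 0.12 (A), 0.86 (B) and 0.23 (C). In the same comparison the median of the 8 neutrophil markers was 0.07, -2.65 and 0.04, with all 8 below 0 in the fit. That of the 5 pan-leukocyte markers was 0.04, -0.80 and 0.11. Other lists also differed in set A: the median was -0.92, -1.52 and -0.14 for the 5 erythroid markers tested, all below 0 in the fit. It was 0.90, -0.29 and 0.03 for the 6 monocyte markers tested and 0.65, 0.34 and 0.04 for the 8 myeloid progenitor markers. Without set B the core median was 0.14 and 13 of 14 were above 0. The base median was 0.15 and the lid median 0.02. This comparison uses the same control plus arrays as the one in controls, so they are not separate evidence.

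Psmb7 had the largest fitted genotype difference in plus arrays. Its signals were 4067, 531 and 4509 in control plus arrays and 5452, 1459 and 5433 in knockout plus arrays, a difference of 0.70 ± 0.21 (95% interval 0.24 to 1.15, adjusted p = 0.507). Psma1 had 3277, 1839 and 3249 against 4133, 3986 and 3982, so its groups did not overlap, and 0.57 ± 0.18 (adjusted p = 0.507). Psmd14 had 7756, 4346 and 7140 against 8509, 14415 and 8021, and Psmc6 had 3791, 3344 and 3802 against 4688, 7671 and 4144, also without overlap. In all, 3 members were higher in knockouts without overlap (2.62% of all genes) and none lower (3.04%). In the other direction Psmd13, a lid subunit, had 1952, 938 and 1884 against 1952, 178 and 2401, and its difference of -0.62 ± 0.41 rested on the set B array.

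**Figure D5:**
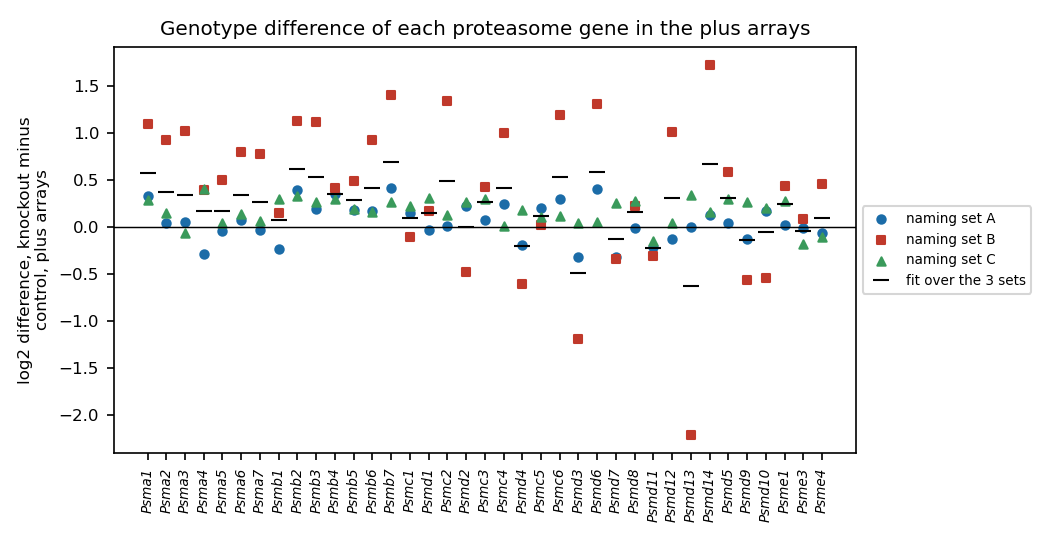
Log2 difference between knockout and control plus arrays (vertical axis, log2 units) for each of the 37 members in naming sets A, B and C (points), with the fit over the 3 sets as a bar. Set B (squares) lies far from sets A and C for many members, from 1.72 for Psmd14 to below -2 for Psmd13, and no member passed the test.

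Whether the plus response differed between genotypes was tested with the interaction term. No member passed, and none of the 10583 genes did (0%). No member had an unadjusted p under 0.05 by limma, against 223 of all genes. The lowest p belonged to Psmb6 (0.50 ± 0.24, 95% interval -0.02 to 1.02, adjusted p = 0.954), whose signals in knockouts were 4714, 9257 and 4525 in minus arrays and 4821, 12017 and 3881 in plus arrays. All 14 core terms were above 0 (median 0.31), and 12 of 14 without set B (median 0.11). The count of members that passed in controls (8) and in knockouts (5) is therefore not shown to differ.

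Correlations between pairs of members across the 12 arrays ranged from -0.97 to 0.99, given as a description and without a test. The median Pearson correlation between pairs was 0.42 among core genes (91 pairs), 0.25 within the base (36 pairs), -0.09 within the lid (28 pairs) and 0.09 over all 666 member pairs. The arrays share naming sets and the RNA integrity of set B, which enter every pair. Differences between groups and sets were not removed, and pairs of other genes were not computed for comparison. Whether the members vary together more than other genes is therefore not shown by these pair values. The correlation with the mean of the other core, base and lid genes was highest for Psmc3 (0.85), Psma1 (0.83), Psme1 (0.81) and Psmb2 (0.81) and lowest for Psmd11 (-0.59) and Psme4 (-0.57), against quartiles of -0.38 and 0.39 over all genes tested.

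Other genes of the pathway came from lists of assembly factors, regulators, associated proteins, shuttles, ubiquitin genes and inducible subunits. Of 29 tested, 7 fell and 3 rose in controls (11.6% and 10.6% of all genes tested), and 6 fell and 3 rose in knockouts (9.72% and 9.03%). All 3 interferon-induced catalytic subunits fell. Psmb8 had signals of 3502, 1897 and 3909 in control minus arrays and 1553, 758 and 1086 in control plus arrays, and fell by 1.42 ± 0.18 in controls and by 1.37 ± 0.18 in knockouts (adjusted p = 0.000474 and 0.000743). Psmb9 fell by 1.49 ± 0.19 and 1.37 ± 0.19, and Psmb10 by 1.46 ± 0.20 and 1.36 ± 0.20. The counterparts that these subunits replace, Psmb5, Psmb6 and Psmb7, had the smaller differences given above.

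Among the dedicated assembly factors, Psmg1 and Psmg2, partners that start the alpha ring, fell in both genotypes. Psmg1 fell by 1.24 ± 0.20 in controls and 1.23 ± 0.20 in knockouts, and Psmg2 by 1.06 ± 0.17 and 0.77 ± 0.17. Psmg4 fell in controls by 0.89 ± 0.28 (adjusted p = 0.0394) and had -0.35 ± 0.28 in knockouts (adjusted p = 0.4). Pomp, the chaperone of beta ring maturation, was at -0.42 ± 0.28 and -0.14 ± 0.28 and did not pass.

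Nfe2l1, which encodes the transcription factor known to drive proteasome genes when the proteasome is inhibited, was at 0.25 ± 0.29 in controls and 0.21 ± 0.29 in knockouts and did not pass. Nfe2l2, the related antioxidant regulator, rose in knockouts by 0.76 ± 0.15 (adjusted p = 0.00622) and was at 0.42 ± 0.15 in controls (adjusted p = 0.0656). The mean of all its probe sets in knockouts was 0.055 (adjusted p = 0.896). Sqstm1, the p62 adaptor that carries ubiquitinated cargo to autophagy and the proteasome, had signals of 968, 517 and 1448 in control minus arrays and 5312, 4191 and 6809 in control plus arrays. It rose by 2.52 ± 0.25 in controls and 2.01 ± 0.25 in knockouts. Zfand5, a proteasome-binding zinc finger protein, rose by 0.88 ± 0.15 and 0.84 ± 0.15 with its brightest probe set, while the mean of all its probe sets had the opposite sign (-0.05 and -0.09). Zfand2a rose in controls by 1.19 ± 0.37 (adjusted p = 0.0384). Ubqln4, a ubiquitin shuttle, fell by 0.83 ± 0.25 and 0.85 ± 0.25. With the mean of all probe sets Zfand2a (1.02, adjusted p = 0.0603) and Ubqln4 (-0.41 and -0.55, adjusted p = 0.199 and 0.101) did not pass.

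Probe sets of the same gene did not always run together. For the 19 members with further tested probe sets, 23 of 33 had the sign of the brightest one in controls and 21 of 33 in knockouts. In each genotype 3 of the 33 passed: Psma6, Psma7 and Psme3 in controls, and Psma7, Psmd7 and Psme3 in knockouts.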

How the data were processed

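Total RNA of 12 arrays was measured on an Affymetrix mouse array, and the authors deposited linear MAS5 signal intensities per probe set, per the submitters' processing notes and the labels' protocols. The trimmed mean (2% trimmed at each end) was 500.002 to 500.004 in the 12 arrays, so values are relative within an array. Arrays give no count depth, and their number limits the precision. Probe sets were named from the platform annotation: 34958 of 45101 had 1 symbol. Values were log2(signal + 32), with the probe set of highest mean per gene and genes above the median probe set mean (6.76 on the log2 scale) tested, 10583 of 18194. limma 3.58.1 in R 4.3.3 (lmFit and eBayes with trend) fitted 4 groups with the naming set as a block, with 6 residual degrees of freedom and 5.78 prior ones. Benjamini-Hochberg adjustment ran over all genes tested in each of 5 contrasts, at 0.05, two-sided. The adjusted p-values of single further probe sets came from the same model fitted to all probe sets above the level filter. They were adjusted over those probe sets. The pairing by naming set comes from the form of the titles: deviations from group means correlated at 0.41 to 0.77 within a set (18 pairs of arrays) and at -0.64 to 0.28 between sets and groups (36 pairs). In data simulated for the plus against minus comparison in controls over 10583 genes, 55 of 100 genes changed 2-fold and 99 of 100 changed 4-fold were called. Of the calls 9.41% were false, a larger share than the threshold of 0.05. No other genes were changed in the simulation, whereas 22.1% of genes passed in the data, so its shares need not hold for them. All 37 members matched RefSeq by gene number, and promoter windows are RefSeq's, build GRCm38.p6. The members, marker and pathway lists and motifs were chosen with earlier results of these data known. All members and the targeted genes could be named; of the pathway and marker lists, Nfe2l1, Pomp and the genes of smallest p in each contrast were named. Alternatives covered the added constant, scaling, level filter, probe sets per gene, naming set, variance weights, RNA integrity, the array with conflicting labels, the samples in the fit and each array left out.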

Additional observations from a re-analysis of the deposited data

How the results depend on the processing

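The counts of proteasome genes that passed (8 in controls, 5 in knockouts) depended on the naming set block, on which the pairing of arrays rests. Without the block 0 passed in controls and 0 in knockouts, where 4.44% and 2.82% of all genes passed. Without set A 1 and 0 passed (9.97% and 6.42% of all genes), and without set C 0 and 0 (5.4% and 3.36%). Without set B 9 and 7 passed (29% and 25% of all genes), of which 6 and 4 had passed before. With array weights 18 and 12 passed (39.2% and 37.9% of all genes). With RNA integrity (the beta-actin ratio) in the fit 5 and 1 passed (14.4% and 6.14% of all genes). Without the level filter 3 passed in controls (10.8% of all genes). In knockouts 2 passed with the array of conflicting labels as a control (9.18% of all genes), and 0 when only the groups compared were fitted (6.26%). In controls 12 passed with that array as a control (26.5%), of which 11 fell and 1 rose. Quantile normalization gave 11 in controls (25.1%), of which 10 fell and 1 rose. Leaving out 1 array gave 2 to 14 in controls and 0 to 5 in knockouts, where 12.2% to 32.6% and 8.85% to 22.4% of all genes passed. In controls the count was 2 without the minus array of set A, 3 without that of set B and 2 without that of set C. It was 4, 2 and 3 without the control plus arrays of sets A, B and C, and 5, 5 and 4 without the knockout minus arrays. Without the knockout plus arrays of sets A and B the count was 5 and 14 (20.3% and 32.6% of all genes). In knockouts it was 2, 1 and 0 without the knockout minus arrays of sets A, B and C, and 0 and 3 without the knockout plus arrays of sets A and C. With arrays centred on their medians 11 and 5 passed, and all genes split as 6.88% up and 17.9% down in controls, against 10.6% and 11.6%. The comparisons between genotypes and the interaction gave 0 members in every alternative run. With the mean of all probe sets, Psma1 in controls (0.10) and Zfand5 in controls (-0.054) and knockouts (-0.093) reversed. The cause was not tested. Over 27 alternatives Psme1 passed in controls in 25, and Psmb8 and Psmb10 in all 27, whereas Psma7 passed in 8, Psma1 in 9 and Psmd7 in 10. In knockouts Psme3 passed in 8 of 27.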
